A study of Drosophila melanogaster with 12 samples.

Results

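The CPR genes are the largest family of insect cuticle protein genes, and 69 of the 13515 gene rows of the deposited table belong to it by name without being the lens gene. They were chosen as the rows whose FlyBase symbol begins with Cpr and a number, after removal of Cpr72Ec, which encodes a protein of the corneal lens. The study measured RNA in heads of adult Drosophila melanogaster at day 10 of adulthood. Control flies were Elav-Gal4/+ and tau flies were Elav-Gal4/+;UAS-tauR406W/+, so both genotypes carried the driver and only the second could make human tau with the R406W change. Elav-Gal4 drives transgenes in neurons, which are not the cells that secrete cuticle. There were 6 libraries of each genotype, named A to F, each made from a pool of 18 heads in which both sexes were mixed. The series text calls the pools of a genotype independent of each other, and pooling leaves no value for single flies or for either sex.

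CPR proteins carry the Rebers and Riddiford sequence, a stretch that binds chitin, and with chitin fibres they build up the layers of the exoskeleton. Forms named RR-1 are found mostly in soft, flexible cuticle and forms named RR-2 mostly in hard cuticle. Epidermal cells make most of them in pulses around each moult, under control of the hormone ecdysone, and young adults go on laying down inner cuticle for some days after emergence. Many members lie side by side in the genome, the remains of repeated duplication.

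By estimate, control libraries held 20.2 to 33.2 M read pairs and tau libraries 25.7 to 41.5 M. The value of 1 read pair lay between 0.641 and 1.498 normalised counts, which sets how finely low members can be told apart. Silent genes, taken as those with a median of at most 2 over all libraries, were used to show how much signal a library held where none would be expected. They stood at 23.6 normalised counts per kb of exon in tau B, 11.3 in control E and 5.31 in control F, against 1.16 to 2.46 in the other 9. Markers of neurons, photoreceptors and glia were present in every library, as fits the labelled tissue.

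Few of the 69 genes were abundant in the day 10 head. Averaged over the 12 libraries and divided by exon length, 11 members stood at 100 or more normalised counts per kb, 26 between 10 and 100 and 32 below 10. The 10 with the largest values made up 93.1% of all signal from these 69 genes, and Cpr65Au alone 37.6%. Without the lens gene, the 69 genes summed to between 13542.1 and 21081.4 normalised counts in the controls and between 12071.4 and 16034.6 in the tau libraries. That was 0.0469% to 0.0697% of a library's total. Of the 11 abundant members, 4 lie on 2R, 4 on 3L, 2 on 3R and 1 on X, and none of the 5 members on 2L was among them.

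Cpr65Au (FBgn0042119; 3L, 6131242 to 6132109) led with 13534 ± 4118 normalised counts per kb in the controls (SD, n = 6) and 9018 ± 1501 in tau (SD, n = 6). In the controls this was above the lens gene Cpr72Ec, which reached 7943 ± 619 per kb there (SD, n = 6). Cpr65Au also had the widest spread between control pools in absolute terms. Its exons lie for 93.3% of their length opposite the antisense RNA asRNA:CR46005; the libraries are stranded, per the labels, but whether strand was used in counting is not given in the sources used here. Cpr67B (FBgn0035985; 3L, 9404797 to 9406174) followed with 3046 ± 341 per kb in controls (SD, n = 6) and Cpr49Ag with 2680.1 ± 546 (SD, n = 6). The control libraries of Cpr67B and Cpr49Ag overlapped per kb, so these neighbours in rank cannot be ordered beyond their spread.

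Below these came Cpr47Ee at 855 ± 55.0 normalised counts per kb in controls (SD, n = 6), Cpr49Ae at 720.2 ± 195 (SD, n = 6) and Cpr57A at 474 ± 74.9 (SD, n = 6). The exons of Cpr57A all lie within those of Obp57d, an odorant binding protein gene on the same strand, so its reads cannot be assigned to Cpr57A alone. Cpr100A stood at 347 ± 56.1 per kb in controls (SD, n = 6), Cpr97Eb at 249.8 ± 61.3 (SD, n = 6), Cpr76Bc at 165 ± 69.0 (SD, n = 6), Cpr73D at 130.1 ± 8.88 (SD, n = 6) and Cpr11B at 123 ± 53.7 (SD, n = 6). The exons of Cpr73D lie for 9.7% of their length opposite those of Ogdh, a coding gene, and the use of strand in counting is not given.

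**Figure D1:**
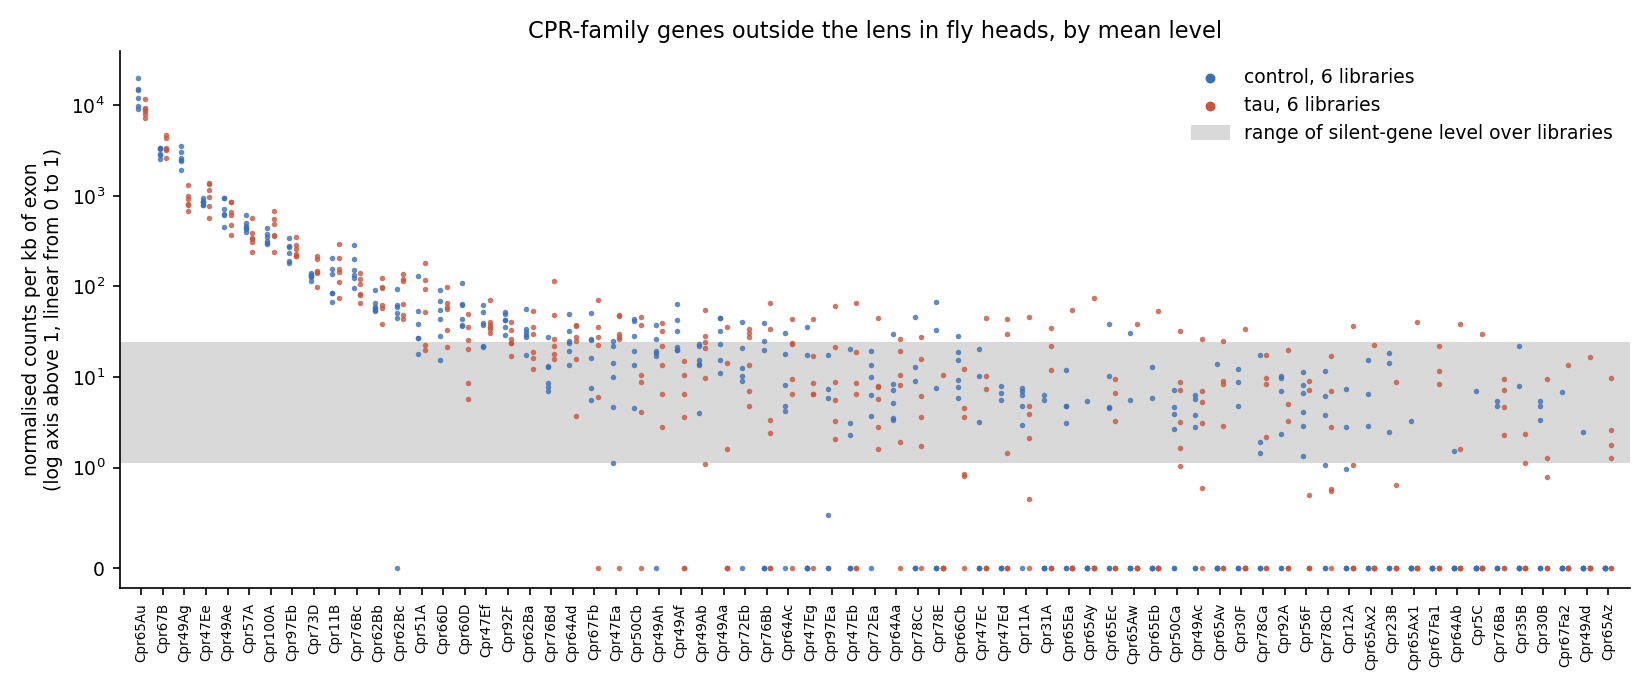
Level of each of the 69 CPR genes outside the lens, in normalised counts per kb of exon (log axis above 1, linear from 0 to 1), ordered by mean. Each point is a library, blue for control and red for tau, and the grey band spans the silent-gene level of the libraries, 1.16 to 23.6; 11 members have means of at least 100 and most of the others lie in the band or at 0.

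Clusters were defined as runs of members with at most 20 kb between neighbours on one chromosome arm. This gave 12 clusters that held 48 of the 69 genes, and 21 members stood alone. A cluster was rarely active as a whole. In the 65A cluster (3L, 6131242 to 6161589), Cpr65Au stood at 11276.3 normalised counts per kb over all libraries, whereas the next of its 7 members stood at 6.61. In the 47E cluster of 7 members (2R, 11251751 to 11278445), Cpr47Ee stood at 945.4 per kb and the next member at 40.4.

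The same pattern of 1 abundant gene held in the 97E pair, where Cpr97Eb stood at 254.3 per kb and Cpr97Ea at 11.1, and in the 76B cluster, where Cpr76Bc stood at 132.5 and the next member at 26.9. The 49A cluster of 8 members (2R, 12376626 to 12415170) was the exception, with Cpr49Ag at 1798.8 and Cpr49Ae at 680.1 per kb. In the 62B cluster no member reached 100, and Cpr62Bb and Cpr62Bc were level at 71.7 and 69.9. The remaining 6 clusters, at 50C, 64A, 65E, 67F, 72E and 78C, had no member above 25.8 per kb. Cpr72Ea and Cpr72Eb, which lie beside the lens gene Cpr72Ec, stood at 10.3 and 17.6 per kb over all libraries, against 4418 for Cpr72Ec itself. Cpr65Ax1 and Cpr65Ax2, and likewise Cpr67Fa1 and Cpr67Fa2, are named as copies of each other, and their low values are uncertain for that reason, though sequence identity was not checked.

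A mean of at least 10 normalised counts over the 12 libraries was required for testing; 36 members passed and 33 did not. All 33 low members were listed at 0 in at least 1 library, and 19 had a median of 0. Their summed level was highest in the libraries where silent genes were high. Per kb of exon they stood at 25.4 in tau B, 10.2 in control E and 5.44 in control F, and at 1.84 to 4.56 in the other 9 libraries. Tau B held the highest value of 22 of these 33 members (66.7%), and of 62.4% of 1945 silent genes outside the family. The sums were not always at the silent level, with 4.56 against 2.36 in control C and 3.86 against 2.19 in tau E. Cpr66Cb and Cpr56F, singled out after their values were seen, were above 0 in every control. Cpr66Cb, with about 1 kb of exon, stood at 15.6, 9.18, 28.8, 7.77, 19.1 and 5.90 normalised counts in controls A to F and at 0, 12.4, 0.918, 0.939, 4.52 and 3.66 in tau A to F. All tau libraries but tau B lay below the lowest control for Cpr66Cb. For Cpr56F the groups overlapped, at 1.70 to 14.4 in controls and 0 to 11.4 in tau. Neither gene was tested in the main fit. An alternative fit on genes with a mean of at least 1 tested 67 members, these 2 among them. It called Cpr49Ag and Cpr49Af lower and no other member, so neither gene was called.

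**Figure D2:**
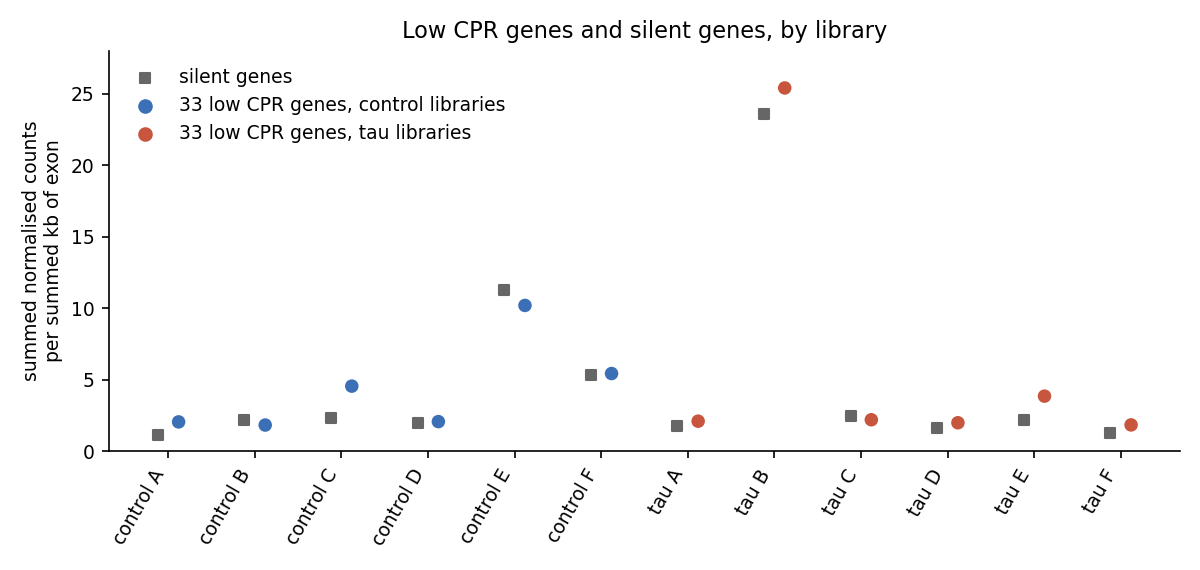
Summed normalised counts per summed kb of exon of the 33 CPR genes below the testing limit (circles, blue control, red tau) and of the silent genes (grey squares) in each of the 12 libraries. Both are high in tau B, at 25.4 and 23.6, and in control E, at 10.2 and 11.3.

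The comparison of genotypes asked which cuticle genes differ when neurons make mutant tau. Among the 36 tested members, 2 fell in tau, none rose and 34 were not called at an adjusted p under 0.05. Of all 10845 genes tested, 5.23% were called, 3.13% lower and 2.10% higher, so the members' 2 calls were close to that background. The count of 0 rises came from limma. At an unadjusted p under 0.05 in the same fit, 1 member was higher and 8 were lower, the 2 called ones among them. The share of all tested genes at that unadjusted limit was not taken, so these counts cannot be set against the shares above. The median log2 fold change of the 36 was 0.16, against 0.008 over all tested genes, with 22 members above 0 and 14 below. The members' median was 0.01 without tau B, 0.03 without control C and 0.04 with the mean of the yolk protein genes as a covariate. That covariate ran lower in tau, at 16.45 to 18.31 on the log2 scale against 17.19 to 19.31 in controls. It is thus partly tied to genotype, and here and below a call lost with it cannot be assigned to yolk protein level. Groups did not overlap for 2 members, and for 3.37% of all tested genes.

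**Figure D3:**
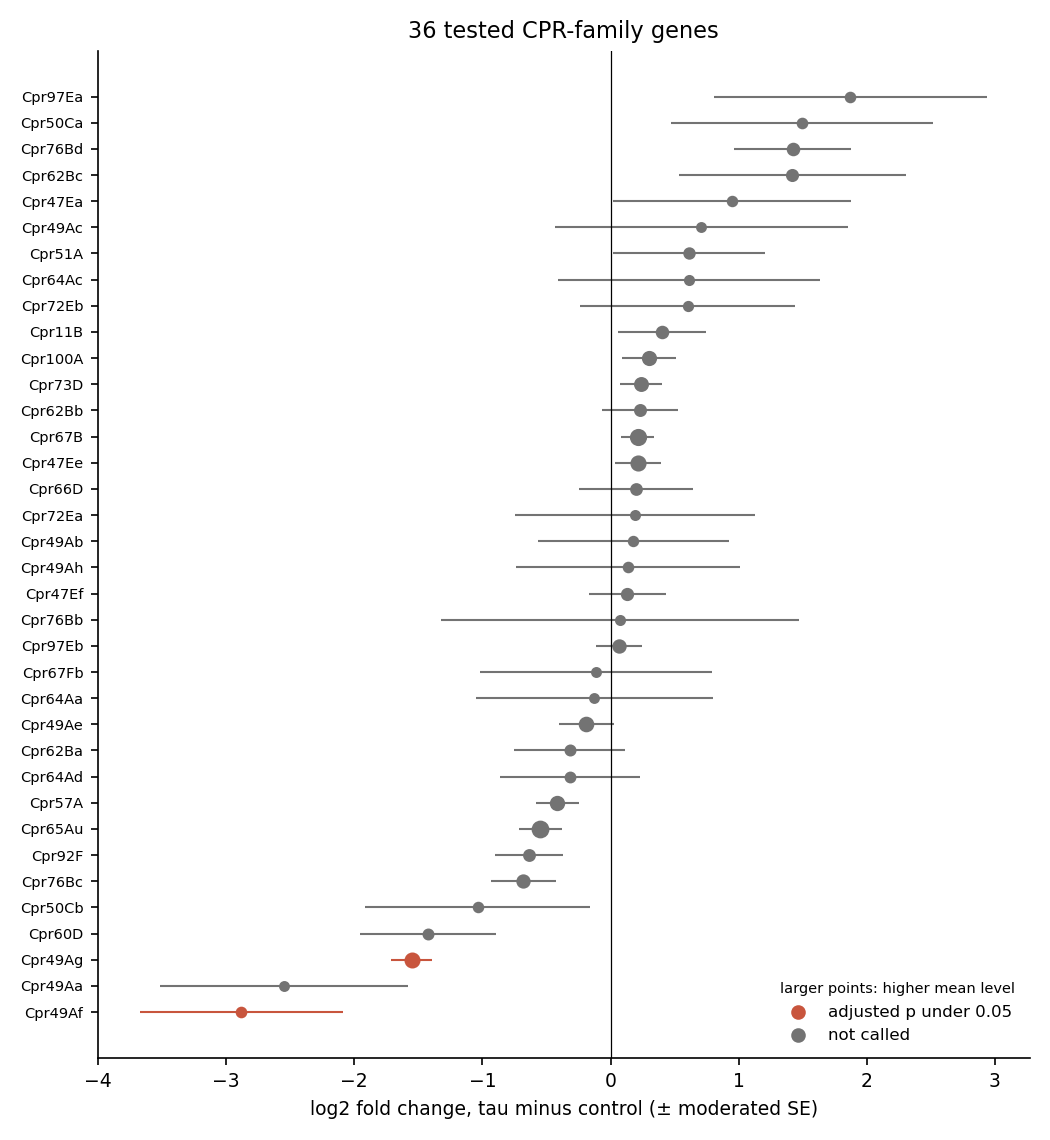
Log2 fold change, tau minus control, of the 36 tested members with its moderated standard error; larger points mark higher mean levels and red marks an adjusted p under 0.05. Cpr49Ag at −1.55 has a short error bar, whereas Cpr49Af at −2.88 and most uncalled genes far from 0 are low genes with wide ones.

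Cpr49Ag (FBgn0033730; 2R, 12407793 to 12408523, plus strand) gave the clearest difference. Its normalised counts in controls A to F were 1722, 2289, 1593, 1979, 1612 and 1257. In tau A to F they were 849, 511, 596, 652, 441 and 529. Every tau library lay below every control, and the highest tau value was well under the lowest control value. The level fell 2.93-fold on the fitted scale, with control pools at 1742 ± 355 and tau pools at 596 ± 143 normalised counts (SD, n = 6 each), and a log2 fold change of −1.55 ± 0.16 (SE; adjusted p = 0.000115 by limma). It was called in all 24 alternative fits, with log2 fold changes between −1.66 and −1.45. In RNA from whole heads, fewer cells that make a transcript and less of it per cell cannot be told apart.

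Cpr49Af (FBgn0033729; 2R, 12405932 to 12407045) ends less than 1 kb before Cpr49Ag begins and was the other called member. It was a low gene, at 20.8, 45.2, 22.6, 20.9, 67.6 and 34.4 normalised counts in controls A to F. In tau A to D it stood at 6.85, 16.1, 3.87 and 11.1, and in tau E and tau F it was listed at 0. The groups did not overlap, although only a few read pairs separate tau B from the lowest control. The log2 fold change was −2.88 ± 0.79 (SE; adjusted p = 0.0456 by limma). The size depended on the pseudocount, at −3.25 with 0.5 and −1.92 with 5. Silent-gene signal over its exons would come to 25.0 normalised counts in tau B, more than the gene's own value there, and its part in the result was not tested beyond a fit with that signal subtracted (−3.68, adjusted p = 0.016). The call ended with tau B and controls E and F left out (adjusted p = 0.102), with the yolk protein covariate (adjusted p = 0.235), with a pseudocount of 0.5 (adjusted p = 0.0575), without a variance trend (adjusted p = 0.0545), and when any 1 library other than tau B or tau D was left out (adjusted p from 0.0533 to 0.0993).

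The next gene along the plus strand after Cpr49Ag is CG30050 (FBgn0050050, 2R, 12408954 to 12409735), a coding gene that is not named as a CPR gene. It is 1 of 7 other coding genes inside the cluster and was picked out with its values known. Its normalised counts in controls A to F were 157, 207, 211, 153, 243 and 117. In tau A to F they were 107, 72.5, 93.1, 54.3, 48.4 and 61.5. The groups did not overlap here either, and the gene fell 2.49-fold (log2 fold change −1.32 ± 0.25, SE; adjusted p = 0.00539 by limma; 0.0931 with the yolk protein covariate). Cpr49Af, Cpr49Ag and CG30050 thus make up a run of 3 neighbouring genes that fell.

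On the other side of this run, Cpr49Ae (FBgn0033728; 2R, 12402216 to 12405108) did not pass the test. Its normalised counts were 1133, 1114, 855, 731, 544 and 748 in controls A to F and 1026, 781, 441, 563, 727 and 1016 in tau A to F. The groups overlapped almost fully, with a log2 fold change of −0.19 ± 0.22 (SE; adjusted p = 0.735 by limma). The log2 ratio of Cpr49Ag to Cpr49Ae went from 1.05 ± 0.38 in controls to −0.32 ± 0.54 in tau (SD, n = 6 per group), a difference of −1.36 ± 0.27 (SE; exact two-sided permutation p = 0.00216, adjusted 0.00433). That is the smallest p these 12 libraries can give, and the pair was among 4 chosen after the values had been seen. The ratio of Cpr49Af to Cpr49Ae also differed, by −2.69 ± 0.88 (exact two-sided permutation p = 0.00649, adjusted 0.00866). This pair was likewise among the 4. In both pairs the fall of one gene and the level of Cpr49Ae were known by then, so these p values add no separate support. At the far ends of the cluster, Cpr49Aa differed by −2.55 ± 0.97 on the log2 scale (adjusted p = 0.159 by limma) from a control level of 6.55 to 26.3 normalised counts, with 3 tau libraries listed at 0, and Cpr49Ah by 0.14 ± 0.88 (adjusted p = 0.967).

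**Figure D4:**
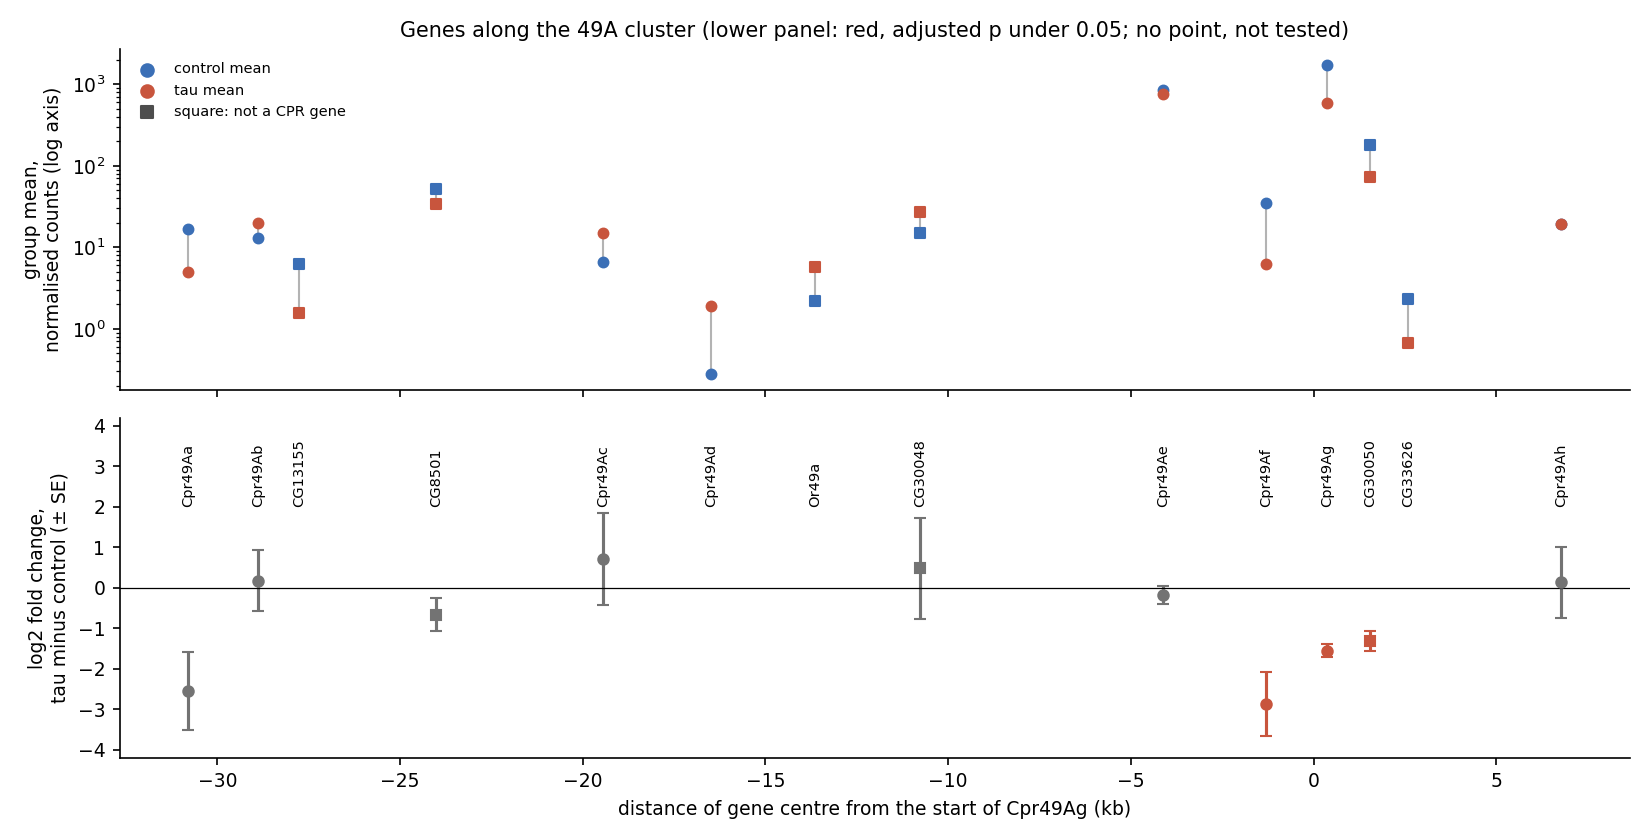
Genes of the 49A cluster by distance of their centres from the start of Cpr49Ag. The upper panel gives group means in normalised counts on a log axis and the lower panel log2 fold changes with standard errors for tested genes; Cpr49Af, Cpr49Ag and CG30050, in red, fell next to each other, and Cpr49Ae to their left stayed near 0 at −0.19.

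The most abundant member, Cpr65Au, had normalised counts of 7791, 8007, 10645, 6274, 5202 and 4796 in controls A to F. In tau A to F it had 6111, 4810.4, 4207, 4575, 3804 and 4955. Controls A to C were high and 3 tau libraries lay below the lowest control, but the groups overlapped. The log2 fold change was −0.55 ± 0.17 (SE; adjusted p = 0.0798 by limma). It passed with tau B and controls E and F left out (−0.78, adjusted p = 0.032), without control F alone (−0.65, adjusted p = 0.0348) and with array weights (adjusted p = 0.0473), and it was −0.22 with the yolk protein covariate (adjusted p = 0.713).

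Cpr67B, the second most abundant, had 2910.3, 2578, 3298, 3379, 3434 and 2859.5 normalised counts in controls A to F and 3225, 3294, 4771, 4372, 2653 and 3387 in tau A to F. Only tau C and tau D were above the range of the controls (log2 fold change 0.21 ± 0.13, SE; adjusted p = 0.427 by limma). Cpr47Ee (FBgn0033602; 2R, 11265126 to 11266856) was very even among controls, at 1092 to 1298, and uneven in tau, with 797 in tau A and 1922 in tau D (0.21 ± 0.18; adjusted p = 0.606). Cpr73D, Cpr100A and Cpr97Eb had log2 fold changes of 0.24 ± 0.16, 0.30 ± 0.21 and 0.06 ± 0.18 (adjusted p = 0.494, 0.501 and 0.909). Cpr73D and Cpr100A were, like Cpr47Ee, highest or second highest in tau D, at 605 and 945 normalised counts. Cpr11B, on X, stood at 100.5 ± 44.0 and 135 ± 64.1 normalised counts in controls and tau (SD, n = 6 per group; adjusted p = 0.612). Cpr57A differed by −0.42 ± 0.17 on the log2 scale (adjusted p = 0.19), with 5 of 6 tau libraries below the lowest control and tau D, at 838, within the control range; without tau D it passed (−0.55, adjusted p = 0.0374).

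Neighbours in the 76B cluster pointed in opposite directions. Cpr76Bc (FBgn0036880; 3L, 19520945 to 19527272) had 281, 367, 528, 246, 226 and 176 normalised counts in controls A to F and 149, 223, 122, 195, 258 and 151 in tau A to F. The groups overlapped, at −0.68 ± 0.25 on the log2 scale (SE; adjusted p = 0.148 by limma). Cpr76Bd (FBgn0036881; 3L, 19532743 to 19538289) had 39.0, 31.8, 59.1, 35.6, 126 and 59.97 in controls A to F and 80.5, 221, 98.8, 119.8, 72.3 and 515 in tau A to F. Tau F stood far above the rest, and all 6 tau libraries were above every control except control E. The log2 fold change was 1.42 ± 0.46 (SE; adjusted p = 0.0902 by limma). Silent-gene signal over the 4525 bases of its exons would come to 107 normalised counts in tau B, 51.3 in control E and 5.71 in tau F; its part in the result was not tested beyond a fit with that signal subtracted, where the log2 fold change was 1.64 (adjusted p = 0.0491). Cpr76Bd also passed with array weights (adjusted p = 0.039) and without control E (adjusted p = 0.0486). The log2 ratio of Cpr76Bd to Cpr76Bc differed between genotypes by 2.10 ± 0.64 (SE, exact two-sided permutation p = 0.013, adjusted 0.013), again as 1 of the 4 pairs chosen after their values were seen. The opposite directions of these genes were known by then, so the p adds no separate support.

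**Figure D5:**
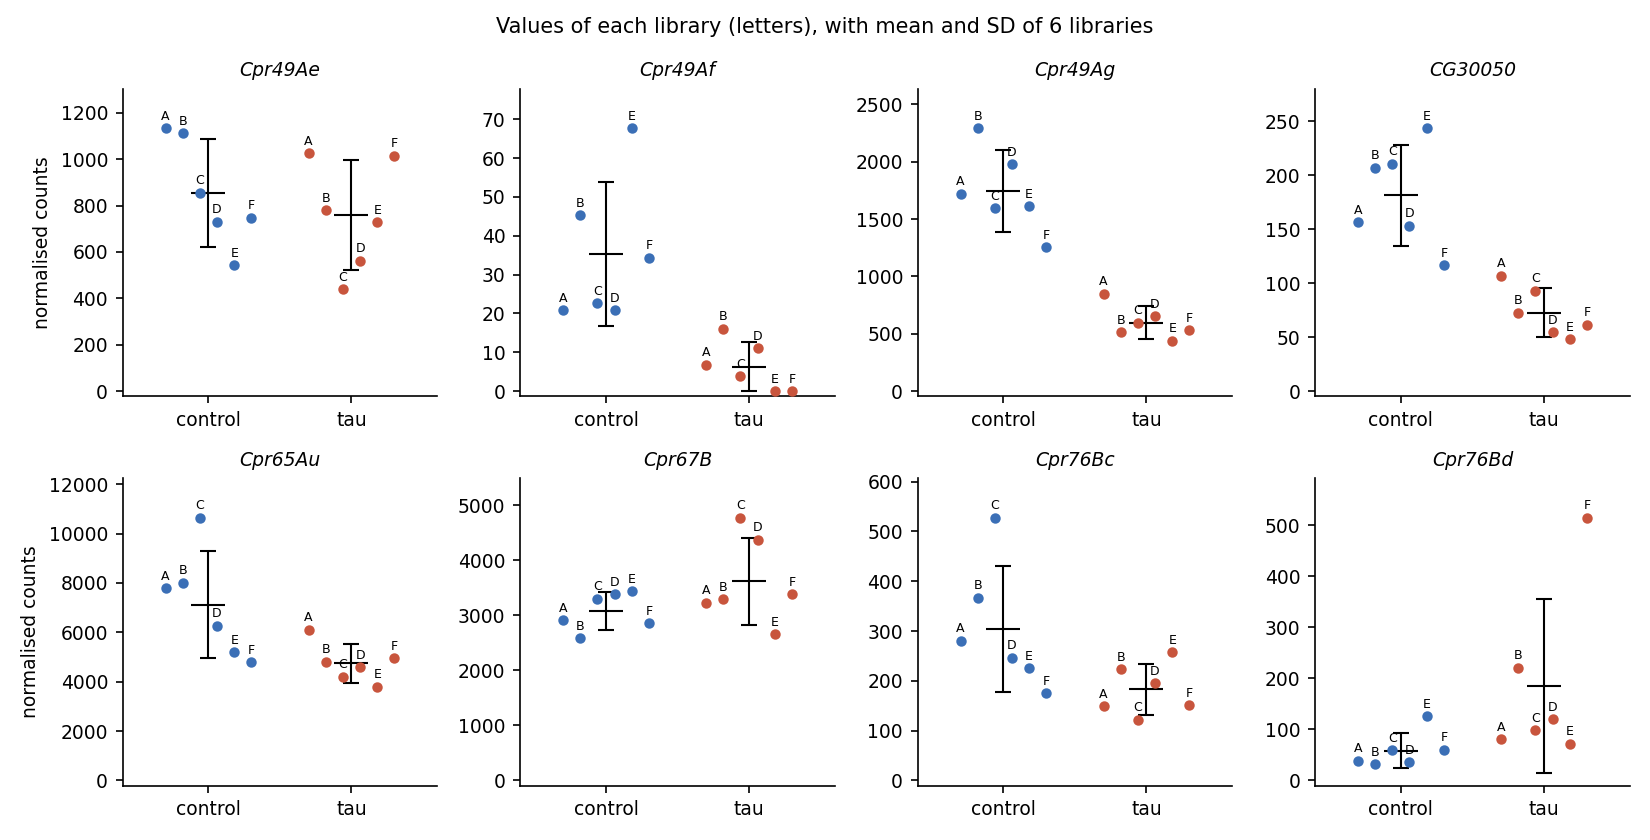
Normalised counts of 8 genes in each library (letters A to F), with the mean and SD of the 6 libraries of a genotype; each vertical axis has its own scale. Cpr49Af, Cpr49Ag and CG30050 have no overlap between genotypes, Cpr65Au and Cpr76Bc overlap, and Cpr76Bd is highest in tau F at 515.

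The other large differences that were not called belonged to low genes. Cpr60D (2R, 24662682 to 24663406) had 24.2 to 73.0 normalised counts in the controls and 3.86 to 32.9 in tau; 5 tau libraries lay below the lowest control (log2 fold change −1.42 ± 0.53, SE; adjusted p = 0.149 by limma). Cpr97Ea, Cpr50Ca and Cpr62Bc had values of 1.87 ± 1.07, 1.496 ± 1.02 and 1.42 ± 0.88 (adjusted p = 0.392, 0.494 and 0.441). For Cpr97Ea the top libraries were tau F at 107 and tau B at 38.3, where silent-gene signal over its exons comes to 2.25 and 42.1. For Cpr50Ca it was tau B at 111, where that signal comes to 81.0. Cpr62Bc was listed at 0 in control C and stood at 51.5 to 107 in the other controls. Cpr64Ad, the member of the 64A cluster with the highest mean, had −0.32 ± 0.55 (adjusted p = 0.835). Over the 34 members that were not called, log2 fold changes ran from −2.55 to 1.87 and adjusted p from 0.0798 to 0.989. Standard errors were 0.13 to 0.34 for the 11 abundant members and 0.27 to 1.40 for the other 25.

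The fall of Cpr49Ag was smaller than that of the lens gene. Cpr72Ec fell 9.53-fold, and the log2 ratio of Cpr49Ag to Cpr72Ec rose from −2.74 ± 0.33 in controls to −1.04 ± 0.58 in tau (SD, n = 6 per group, exact two-sided permutation p = 0.00216, adjusted 0.00433). This pair too was among the 4 chosen after the values had been seen, and its p is the smallest these 12 libraries can give. Both falls were known by then, so the p adds no separate support. Of 4 lens markers, Cpr72Ec and retinin fell (2.47-fold for retinin, adjusted p = 0.00112 by limma), and Crys and Gasp were not called (−0.18 ± 0.19 and 0.03 ± 0.10; adjusted p = 0.697 and 0.92). Summed over the 4, lens markers ran from 16781.7 to 23436.9 normalised counts in controls and from 4727.4 to 7313.7 in tau. Such sums, here and below, weigh the most abundant markers most and need not reflect a whole list. Some markers of other head cells moved too. Of 7 haemocyte markers 5 fell, with sums of 24267.1 to 37827.7 in controls and 16480.8 to 20085 in tau. Of 4 glia markers 1, Eaat1, fell, and their sums did not overlap, at 15720.9 to 21408.8 in controls and 12839.8 to 15284.2 in tau. Of 4 fat body and female markers 1, fit, fell, with sums of 457837.5 to 1972108.1 in controls and 270304.2 to 1078038.4 in tau. Of 5 muscle markers 1, Act57B, rose, with sums of 56976.4 to 70501.9 and 63272.4 to 89245.8. Of 4 neuron and 4 photoreceptor markers none was called. Of 4 oenocyte markers, genes of the cells that make cuticular hydrocarbons, 1 fell, and their sums overlapped. Of 5 tracheal and epithelial markers none was called, with sums of 12608.4 to 14898.7 in controls and 13232.2 to 17456.8 in tau, and no defining marker of these lists was at 0 in all libraries. The part of these cells in the fall of Cpr49Ag was not tested.

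Other genes that build, cut or tan cuticle were taken from 7 lists. Of 125 listed genes in the table, 78 were tested; 1 rose, 6 fell and 71 were not called, beside 2.10% higher and 3.13% lower over all tested genes. Among CPR genes named otherwise, such as the larval cuticle genes Lcp and the Ccp84A genes, none of 10 tested was called, and the list's median log2 fold change was 0.37. Its leading gene was Ccp84Ab, at 0 to 26.1 normalised counts in controls and 12.5 to 188 in tau (3.02 ± 0.89, SE; adjusted p = 0.063 by limma). It passed with equal totals (adjusted p = 0.0427) and without control E (adjusted p = 0.0398). Lcp65Ag2, which lies in the 65A cluster beside Cpr65Au, had −0.91 ± 0.34 (adjusted p = 0.151). None of 4 tested Tweedle genes, a second cuticle protein family, was called, with TwdlE at −1.01 ± 0.41 and TwdlT at 0.42 ± 0.27 (adjusted p = 0.185 and 0.462). None of 4 tested genes for peritrophin-like chitin-binding proteins was called either, and Peritrophin-A and obst-B had −0.59 ± 0.30 and −1.01 ± 0.53 (adjusted p = 0.323 and 0.339).

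Of 15 tested genes for chitin synthesis and assembly, Cda5, which encodes a chitin deacetylase, rose 1.53-fold, with controls at 2628 ± 325 and tau at 4124 ± 1105 normalised counts (SD, n = 6 each; adjusted p = 0.0341 by limma). The gene knk, needed to organise chitin fibres, differed by 0.90 ± 0.28 on the log2 scale and was not called (adjusted p = 0.0843). Of 15 tested chitinases and relatives, 3 fell: Idgf5, a chitinase-like growth factor gene (2.21-fold; adjusted p = 0.0114), and the hexosaminidase genes Hexo1 and Hexo2 (1.45-fold and 1.63-fold; adjusted p = 0.0377 and 0.047). Of 17 tested tanning and pigmentation genes, 3 fell: yellow-f2, which encodes an enzyme of melanin synthesis (2.36-fold; adjusted p = 0.00542), yellow-d (1.599-fold; adjusted p = 0.0328) and t, the hydrolase gene tan (1.39-fold; adjusted p = 0.04997). No gene among 13 tested transcription factors of the epidermis and the ecdysone response was called; grh, a factor of epidermal barrier genes, had 0.25 ± 0.10 and Hr38, a nuclear receptor, 0.35 ± 0.17 (adjusted p = 0.184 and 0.304). Idgf5 and yellow-f2 kept their calls whichever library was left out, and the other 5 in only 3 to 5 of the 12 cases. With the yolk protein covariate, yellow-f2 was called (adjusted p = 0.0337) and Idgf5 (adjusted p = 0.0683) and the other 5 were not. With tau B and controls E and F left out, none of the 7 was called (adjusted p from 0.0504 to 0.149). Cpr49Ag remained called in that fit.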

How the data were processed

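The deposited values are a signal made by the authors, gene counts divided by DESeq2 normalisation factors. Per the submitters' processing notes, Trimmomatic 0.36, FastQC, Salmon 0.13.1, DESeq2 1.24 and genome build dm6 were used, and per the file headers the sequencing lanes of a library were joined. For the annotation and the use of strand in counting, the sources used here give nothing. The values are not whole multiples of 1 read, so no count model was fitted, and depth was estimated from the spacing of low values.

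Symbols were matched for 13433 of 13515 rows. Values were tested as log2(value + 1) with limma 3.58.1 (variance trend) in R 4.3.3 on the 10845 genes with a mean of at least 10, with Benjamini-Hochberg adjustment over all of them and a threshold of 0.05; fold changes of low genes depend on the pseudocount. The fit was tested on simulated data. Levels per kb used exon lengths of the Ensembl BDGP6 annotation, which also gave coordinates. Clusters allowed gaps of 20 kb (alternatively 50 kb). For 4 gene pairs, log2 ratios were tested between genotypes by exact two-sided permutation (scipy 1.17.1) and adjusted over the 4.

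Members, lists and tests were chosen with earlier results of these data known. The genes named were every called member, the 10 with the highest level per kb, the highest member of each cluster with at least 3 tested, the 6 largest uncalled differences, and 2 genes with the smallest adjusted p of each other cuticle list; further called list genes, marker genes, neighbours of named genes and CG30050 were added. Alternatives covered the pseudocount, the mean required, scaling, the variance trend, array weights, a replicate block, a yolk protein covariate (mean of Yp1, Yp2 and Yp3), subtraction of silent-gene signal, and leaving out libraries.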

Additional observations from a re-analysis of the deposited data

Results flagged for a closer look

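Each group of 6 libraries was searched for a value far from the rest, as the gap to its nearest neighbour divided by the range of the group, with a limit of 0.625. The limit is passed by chance in about 1 in 20 groups, and 38 groups were examined on both the log2(value + 1) scale and the scale of normalised counts. On the log2 scale, Cpr62Bc in control C passed it, at 0 against 51.5 to 107 in the other controls (ratio 0.845; 0.48 on normalised counts, which did not pass). The log2 fold change of Cpr62Bc was 1.42 with control C and 0.40 without it, and it was called in neither fit.

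On normalised counts, 4 high values passed, none of which passed on the log2 scale. Cpr50Ca stood at 110.6 in tau B against 3.59 to 30.0 in the other tau libraries (ratio 0.754). Cpr76Bd stood at 126.2 in control E, with a ratio of 0.702, and at 514.9 in tau F, with a ratio of 0.664. Cpr97Ea stood at 107.1 in tau F against 3.65 to 38.3 in the others (ratio 0.665).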

How the results depend on the processing

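Single-member results kept direction and call in 420 cases, most of them for members called in no fit. In 15 cases a call was lost, all of them for Cpr49Af, which was called in 9 of its 24 fits, the main one included. In 8 cases a call was gained and in 5 the sign changed. The cause of these changes was not tested. Members called higher numbered 0; they numbered 1 with array weights and 1 with silent-gene signal subtracted, and 0 to 1 when each library was left out in turn. Members called lower numbered 2. They numbered 1 with a pseudocount of 0.5, 1 with no variance trend and 1 with yolk proteins as covariate. With array weights they numbered 3, and 1 to 3 when each library was left out. With a mean of at least 50 required, 1 of 17 tested members was called lower. Cpr49Af, with a mean of 20.8, was not tested there. In the other cuticle lists, 1 gene was called higher; there were 3 with equal totals, 2 with array weights, and 0 with no variance trend, with yolk proteins as covariate, with tau B and controls E and F left out, or with silent-gene signal subtracted, and 0 to 1 when each library was left out. In these lists 6 genes were called lower; there were 3 with equal totals, 2 without a variance trend, 1 with the yolk protein covariate, 0 with tau B and controls E and F left out, 9 with the replicate block, and 2 to 9 when each library was left out. Cpr49Ae changed sign with the yolk protein covariate, to 0.15 (adjusted p = 0.914). Leaving out each library in turn gave −0.49 to 0.11 for Cpr64Ad and −0.026 to 0.16 for Cpr97Eb; neither was called.

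Libraries of the same letter correlated from −0.226 to 0.137 in their deviations from the group means, so the letters were not taken to pair them. The fit with the replicate block called 2 members lower, Cpr49Ag (adjusted p = 0.000117) and Cpr65Au (adjusted p = 0.0382), not Cpr49Af (adjusted p = 0.0783), and 699 genes in all against 567 without it. Over all genes, equal totals moved the median log2 fold change to 0.112 and the calls from 228 higher and 339 lower to 525 and 261. The yolk protein covariate, itself partly tied to genotype, left 146 calls. Leaving out tau B and controls E and F left 281, array weights gave 876 and no variance trend 369. The 12 clusters were the same at both gaps. Depth limits what can be read from the 33 members below the testing limit, all of them listed at 0 in at least 1 library. Whether their low values reflect depth or little or no transcript was not tested.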
